A study of Mus musculus with 5 samples.

Results

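The genes described here encode the contractile and calcium-handling proteins that slow-twitch muscle fibres use in place of fast-twitch forms: Myl2, Myh7, Tnnc1, Tnni1, Tnnt1, Myl3, Myoz2, Tpm3, Casq2 and Atp2a2. Every probe set that the Mouse Genome 430 2.0 annotation assigns to 1 of these symbols and to no other gene was taken. That gave 21 probe sets of 10 genes, out of 45101 probe sets on the array and 18193 genes with such a probe set. Atp2a2 had 6 probe sets, Tpm3 had 5, Myl3 had 3, and each of the other 7 genes had 1. The genes were selected on their Dox and NoDox ratios in these same 5 arrays, so their values below are a description and carry no test.

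The study used the esophagus of mice whose CC10 promoter, active in the club cells of the airway, drives a doxycycline-dependent activator (rtTA) that switches on an interleukin-13 (IL-13) transgene. Total RNA of 3 esophagus samples from such mice fed doxycycline (Dox) and 2 from such mice fed regular food (NoDox) was hybridised to 5 arrays. All mice carried the CC10-IL-13 transgene on the FVB/N background and were 3 to 4 months old. Mice without the transgene that ate doxycycline were not analysed here, so an effect of the drug itself and one of IL-13 cannot be told apart. Nothing in the labels states how many animals the arrays stand for, and the spread between arrays may be technical.

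Striated muscle fibres are built from sarcomeres, in which myosin of the thick filament pulls on actin of the thin filament when calcium binds the troponin complex. Slow and fast fibres make different versions of the myosin heavy and light chains, the 3 troponin subunits, tropomyosin and the calcium pump and store, each from its own gene. The mouse esophagus is wrapped in a coat that is largely striated muscle. Many slow genes are also used by the heart: Myh7, Myl2, Myl3, Tnnc1, Casq2 and Atp2a2 are cardiac genes as well, while Tnni1 and Tnnt1 are the slow skeletal troponins.

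Each deposited value is a ratio of an array's signal to the mean of both NoDox arrays, so that 1 is the NoDox mean and the 2 NoDox ratios of a probe set are mirror images around it. Differences are Dox minus NoDox group means of the log2 ratios, with the standard error (SE) of the fit over all genes. For a probe set that does not stand for its gene, the SE is that of the same fit over all probe sets. For 41392 of 45101 probe sets (91.8%) the ratios also gave back the array signals in their original arbitrary units. The remainder, which include 11 of the 21 probe sets described here, have only a lower bound on their signal. The median Dox ratio over the array was 0.955, 0.952 and 0.926 in replicates 1, 2 and 3. The 3′ to 5′ signal ratio of beta-actin, an index of RNA integrity set against the NoDox mean, was 1.08, 1.10 and 1.18 in the Dox arrays, against 1.002 and 0.999 in the NoDox arrays. That of Gapdh was 0.993, 1.02 and 1.08 in the Dox arrays, against 1.01 and 0.988 in the NoDox arrays.

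The slow genes differed between Dox and NoDox esophagus by very unequal amounts. The slow myosin heavy chain Myh7, its regulatory light chain Myl2 and the calcium-binding troponin Tnnc1 had mean Dox ratios of 0.0596, 0.0152 and 0.130 to the NoDox mean. The troponins Tnni1 and Tnnt1 and the Z-disc protein Myoz2 were 2.32-fold to 2.97-fold lower. Tpm3, Casq2, Atp2a2 and Myl3 were 1.15-fold to 1.67-fold lower on the probe set that stands for each gene, with overlapping groups for Myl3 and other probe sets of Tpm3 and Atp2a2 of the opposite sign. The median log2 difference over the 10 genes was -1.37, beside -0.08 over all genes. In bulk tissue, fewer slow fibres and less slow-gene RNA per fibre cannot be told apart.

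**Figure D1:**
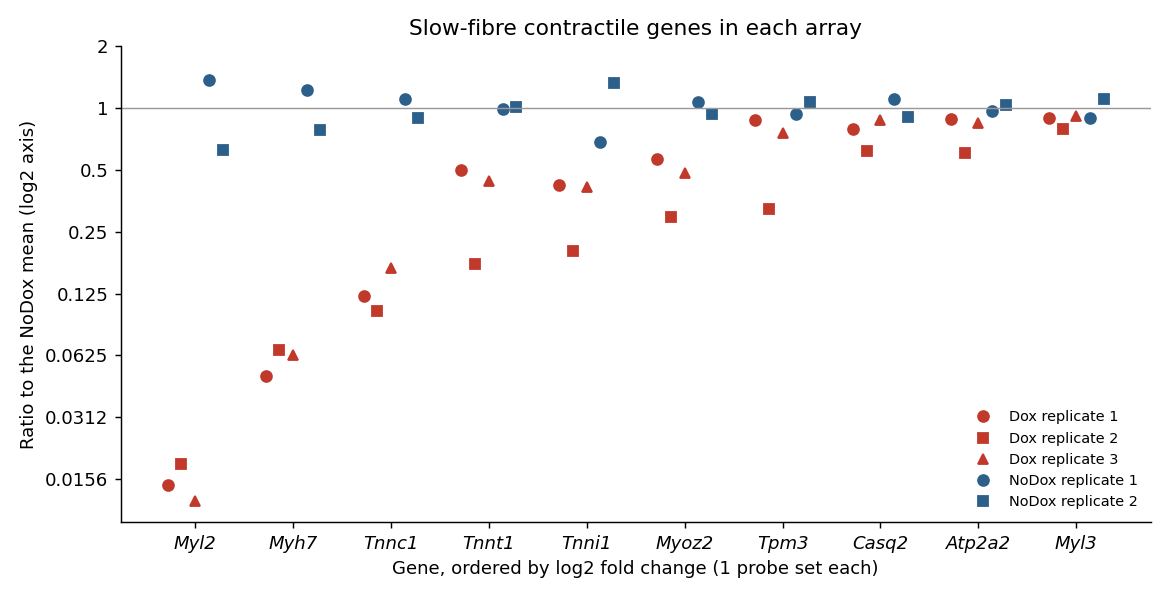
Ratio to the NoDox mean (vertical log2 axis) of the probe set standing for each of the 10 slow-fibre genes in the 3 Dox arrays and, to their right, the 2 NoDox arrays; each point is 1 array. Myl2, Myh7 and Tnnc1 lie far below 1 in all 3 Dox arrays, whereas Casq2, Atp2a2 and Myl3 stay near it.

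Among all genes, 95 of 18193 (0.522%) were lower and 153 (0.841%) higher in Dox arrays at an adjusted p under 0.05 in limma. Myl2, Myh7 and Tnnc1 were among the lower ones, 3 of the 10 genes, and none was among the higher. All 3 Dox arrays lay below both NoDox arrays for 9 of the 10 genes, where 22.3% of all genes did so, and for 10 of the 21 probe sets, where 19.7% of all probe sets did. A difference of at least 2-fold downward was seen in 6 of the 10, against 5.68% of all genes. These shares restate how the genes were picked, and nothing is read from them.

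Of the thick filament, Myh7, the slow or beta myosin heavy chain that hydrolyses ATP to move the filament, had ratios of 0.0496, 0.0664 and 0.0629 in the Dox arrays, against 1.22 and 0.783 in the NoDox arrays. Its recovered signals were 243.6, 340.2 and 307.4 units in Dox esophagus, against 5638.5 and 3582.5 units in NoDox esophagus. The Dox arrays lay close together and more than 10 times below the lower NoDox array, at a log2 difference of -4.04 ± 0.26 (SE, n = 3 and 2), 16.5-fold lower. A pair of probe sets that the annotation gives to both Myh7 and Myh6, the alpha heavy chain of heart, lay outside the choice of probe sets. Their ratios were 0.0449, 0.0366 and 0.0129 in Dox arrays, against 1.28 and 0.717 in NoDox arrays, on one. On the other they were 0.0318, 0.0948 and 0.213 in Dox arrays, against 1.31 and 0.685 in NoDox arrays. Both shared probe sets thus had every Dox array below both NoDox arrays, as the Myh7 probe set did, but they cannot separate the 2 genes. Neither passed an adjusted p under 0.05 in limma. The first was very dim in Dox arrays, at 10.8, 9.2 and 3.1 units, against 291.5 and 160.9 units in NoDox arrays. On the second the Dox arrays spread 6.71-fold.

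Myl2, the slow and ventricular regulatory light chain that binds the neck of the myosin head, was the furthest from NoDox of all 18193 genes in the downward direction. Its ratios were 0.0147, 0.0186 and 0.0122 in Dox arrays, against 1.37 and 0.627 in NoDox arrays. The Dox mean ratio was 0.0152 ± 0.00321 (SD, n = 3), and the log2 difference was -5.96 ± 0.38 (SE), 62.1-fold lower. The groups were far apart, although the NoDox arrays themselves differed 2.19-fold, more than for any other of the 10 genes' representative probe sets.

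Myl3, the essential light chain paired with Myl2 on the same myosin head, did not follow it. On the probe set standing for the gene, its ratios were 0.892, 0.791 and 0.917 in Dox arrays, against 0.897 and 1.10 in NoDox arrays, so the groups overlapped. The log2 difference was -0.20 ± 0.15 (SE). The other Myl3 probe sets gave -0.15 ± 0.15 and -0.18 ± 0.15, and none of the 3 had every Dox array below both NoDox arrays. The 3 probe sets thus differed little from each other, and the ratios of the essential light chain lay near the NoDox mean on each. All 3 had only a lower bound on their signal, and whether brightness hid part of a difference was not tested.

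Of the thin filament, Tnnc1, the slow and cardiac troponin C that binds calcium, had ratios of 0.122, 0.102 and 0.166 in Dox arrays, against 1.10 and 0.895 in NoDox arrays. Its signals were 746.7, 652.3 and 1010.2 units in Dox esophagus, against 6379.8 and 5105.2 units in NoDox esophagus. The groups did not overlap, and the log2 difference was -2.96 ± 0.23 (SE), 7.81-fold lower. Tnnt1, the slow troponin T that anchors the complex to tropomyosin, had ratios of 0.5003, 0.173 and 0.439 in Dox arrays, against 0.986 and 1.01 in NoDox arrays. Its NoDox arrays were nearly equal while Dox replicate 2 was far below the other Dox arrays, a 2.88-fold spread, and the log2 difference was -1.57 ± 0.43 (SE).

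Tnni1, the slow inhibitory troponin that holds the thin filament off at rest, had ratios of 0.423, 0.202 and 0.413 in Dox arrays, against 0.678 and 1.32 in NoDox arrays. The groups did not overlap, but the NoDox arrays were 1.95-fold apart, and the log2 difference was -1.53 ± 0.40 (SE). Troponin C was thus far below the NoDox mean in every Dox array, whereas troponins I and T came near its level in Dox replicate 2 only.

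The promoters of Myh7, Tnnc1 and Myl3 are printed because Myh7 and Tnnc1 were, with Myl2, the slow genes furthest below NoDox and Myl3 was the one nearest to it. The sequences are RefSeq's on GRCm38.p6, 250 bases before to 50 after an annotated start, 5′ to 3′ on the gene's strand. They lie at chr14:54994500-54994799 on the minus strand for Myh7, at chr14:31208062-31208361 on the plus strand for Tnnc1 and at chr9:110763428-110763727 on the plus strand for Myl3. Capitals mark the E-box CANNTG, which myogenic basic helix-loop-helix factors bind, the MCAT element CATTCC on either strand, bound by TEAD factors, and a TATA form, which was TATAAA or, as its other accepted spelling, TATATA.
Myh7: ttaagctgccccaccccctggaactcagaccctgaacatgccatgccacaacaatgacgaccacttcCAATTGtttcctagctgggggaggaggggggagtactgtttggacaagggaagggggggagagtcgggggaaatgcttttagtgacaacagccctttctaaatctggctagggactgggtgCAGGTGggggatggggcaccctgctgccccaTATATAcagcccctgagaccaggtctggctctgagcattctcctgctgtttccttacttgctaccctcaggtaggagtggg
Tnnc1: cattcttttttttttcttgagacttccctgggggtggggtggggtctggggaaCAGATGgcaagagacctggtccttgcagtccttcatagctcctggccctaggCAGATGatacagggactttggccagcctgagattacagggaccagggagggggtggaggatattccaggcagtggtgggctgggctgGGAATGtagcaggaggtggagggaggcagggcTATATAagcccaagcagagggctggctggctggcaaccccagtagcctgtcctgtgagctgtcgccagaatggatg
Myl3: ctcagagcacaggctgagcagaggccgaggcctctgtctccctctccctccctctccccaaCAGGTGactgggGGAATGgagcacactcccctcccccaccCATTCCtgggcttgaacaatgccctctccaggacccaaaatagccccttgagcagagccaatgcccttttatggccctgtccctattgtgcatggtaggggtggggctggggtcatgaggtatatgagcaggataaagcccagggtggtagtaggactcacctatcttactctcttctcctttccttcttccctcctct
In these windows Myh7 held E-boxes 183 and 62 bases before the start and TATATA 31 bases before it. Tnnc1 held E-boxes at 197 and 145 bases, an MCAT element at 58 and TATATA at 26 bases before the start. Myl3 held 1 E-box at 189 and MCAT elements at 177 and 149 bases before the start, and no TATA form, so the promoter of the gene nearest to NoDox carried 2 MCAT elements. Motifs were searched on both strands and may overlap. Over 13 windows of 9 of the genes (Atp2a2 had none in the table), an E-box was in all 13, where 72.3% of 32851 windows held one. An MCAT element was in 3 windows, of Myh7, Myl3 and Tnnc1, where 14.7% of all windows held one; that of Myh7 lay in the window of another start. A TATA form was in windows of 5 genes, where 17.1% of all windows held one, and the MEF2 consensus was in windows of Casq2 and Myoz2, where 3.19% of all windows held one. A match of letters is not a binding site.

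Tpm3, the slow tropomyosin that covers myosin's sites on actin and also encodes non-muscle forms, gave different answers on its 5 probe sets. On the probe set standing for the gene its ratios were 0.870, 0.323 and 0.757 in Dox arrays, against 0.938 and 1.06 in NoDox arrays, with a log2 difference of -0.74 ± 0.40 (SE). On another they were 0.987, 0.245 and 0.819 in Dox arrays, against 0.941 and 1.06 in NoDox arrays, at -0.78 ± 0.53 (SE). Both were low in Dox replicate 2 in particular. The other 3 probe sets had log2 differences of -0.19 ± 0.15, 0.00 ± 0.16 and 0.03 ± 0.19 (SE), and their lowest Dox ratio was 0.822.

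At the Z-disc, which joins neighbouring sarcomeres, Myoz2 (calsarcin-1, a calcineurin-binding protein of slow and cardiac muscle) had ratios of 0.561, 0.293 and 0.482 in Dox arrays, against 1.06 and 0.938 in NoDox arrays. Its signals were 5164.8, 2814.4 and 4417.6 units in Dox esophagus, against 9217.3 and 8048.3 units in NoDox esophagus. The groups did not overlap, and the log2 difference was -1.22 ± 0.27 (SE), 2.32-fold lower, with replicate 2 again the lowest.

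Of the sarcoplasmic reticulum, the calcium store of the fibre, Casq2 (the cardiac and slow-fibre calsequestrin that buffers stored calcium) had ratios of 0.790, 0.614 and 0.869 in Dox arrays, against 1.10 and 0.902 in NoDox arrays. The Dox arrays lay below both NoDox arrays by a small margin, at a log2 difference of -0.41 ± 0.19 (SE). Atp2a2, the SERCA2 calcium pump of slow fibres and heart, which also has a form made in most cells, gave log2 differences of either sign on its 6 probe sets. The largest downward difference was on a probe set with ratios of 0.670, 0.446 and 0.633 in Dox arrays, against 1.02 and 0.982 in NoDox arrays, and a log2 difference of -0.80 ± 0.20 (SE). The probe set standing for the gene had ratios of 0.885, 0.601 and 0.846 in Dox arrays, against 0.962 and 1.04 in NoDox arrays, at -0.38 ± 0.19 (SE). In contrast, another probe set had ratios of 1.14, 1.13 and 1.08 in Dox arrays, against 0.990 and 1.01 in NoDox arrays, at 0.16 ± 0.13 (SE), the only one of the 21 probe sets with every Dox array above both NoDox arrays. The other 3 gave -0.20 ± 0.44, 0.09 ± 0.17 and 0.22 ± 0.21 (SE). Because several probe sets of Tpm3, Atp2a2 and Myl3 have only a lower bound on their signal, which of them is brightest is not known, and the choice of probe set sets the sign for Tpm3 and Atp2a2.

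**Figure D2:**
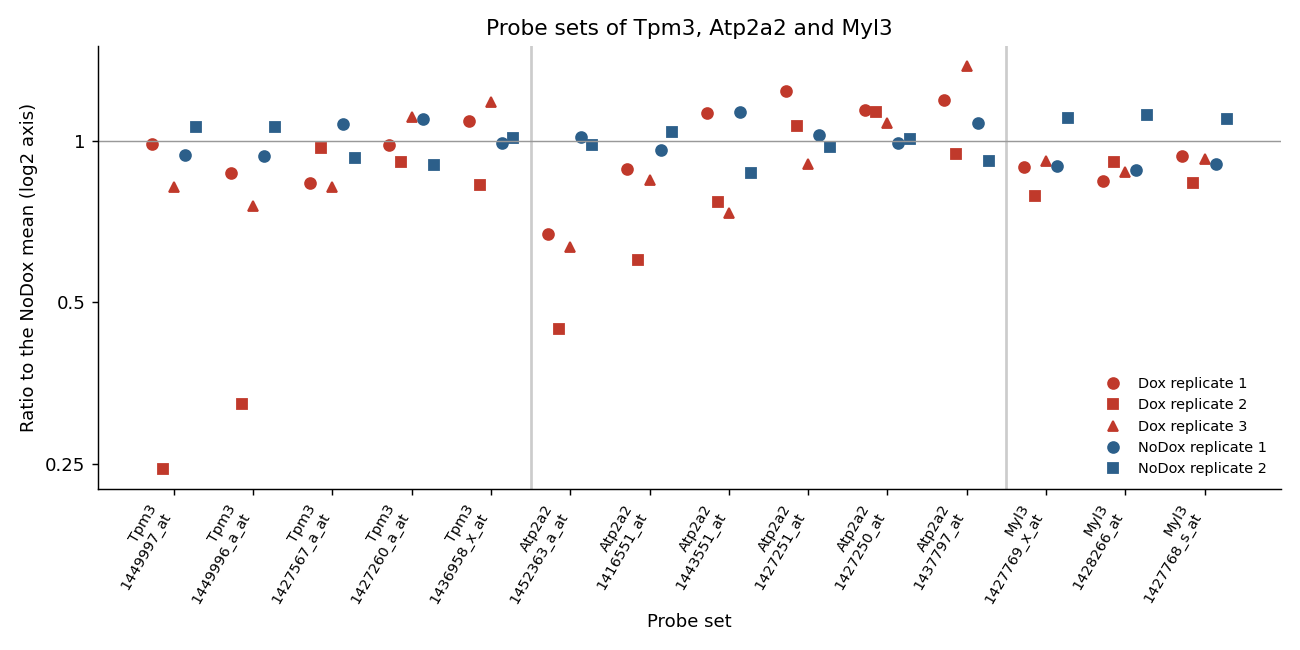
Ratio to the NoDox mean (log2 axis) in each Dox and NoDox array for the 5 probe sets of Tpm3, the 6 of Atp2a2 and the 3 of Myl3; each point is 1 array. The Dox points of Tpm3 and Atp2a2 spread to both sides of 1, with Dox replicate 2 far below on 2 Tpm3 probe sets, whereas those of Myl3 stay together.

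Among the 3 Dox arrays, replicate 2 had the lowest ratio for 8 of the 10 genes, where this held for 38.7% of all genes, and for 14 of the 21 probe sets, where it held for 35.4% of all probe sets. The median log2 ratio of the 10 genes was -0.92, -2.04 and -1.12 in Dox replicates 1, 2 and 3. Myl2 and Myh7 were the exceptions: both had replicate 2 as the highest Dox array. The same array was the lowest for 21 of 23 striated muscle genes listed as shared by slow and fast fibres, such as titin and nebulin. They are called shared sarcomere genes here, although some, such as Ryr1, Dmd and Cox6a2, encode proteins outside the sarcomere. Whether slow and fast fibres use each of them alike was not tested. Their median log2 ratio was -0.19, -0.80 and -0.32 in the Dox arrays, against -0.04 and 0.04 in the NoDox arrays. Whether replicate 2 held less striated muscle was not tested.

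Set against that shared sarcomere median in the same array, the slow genes formed a graded order. Myl2 stood at a log2 value of -5.90, -4.95 and -6.03 in Dox arrays, against 0.49 and -0.71 in NoDox arrays. Myh7 stood at -4.15, -3.11 and -3.67 in Dox arrays, against 0.32 and -0.39 in NoDox arrays. Tnnc1 stood at -2.85, -2.49 and -2.27 in Dox arrays, against 0.18 and -0.19 in NoDox arrays. These 3 genes were low beyond the shared sarcomere median in every Dox array. Of the 23 shared genes, 15 had only a lower bound on their signal, and whether brightness hid part of their difference was not tested. Tnnt1 stood at -0.81, -1.73 and -0.86 in Dox arrays, against 0.02 and -0.02 in NoDox arrays. Tnni1 stood at -1.06, -1.51 and -0.95 in Dox arrays, against -0.52 and 0.37 in NoDox arrays. Myoz2, at -0.65, -0.97 and -0.73 in Dox arrays against 0.12 and -0.13 in NoDox arrays, was likewise below the shared median in every Dox array. Atp2a2 stood at 0.01, 0.06 and 0.08 in Dox arrays, against -0.02 and 0.02 in NoDox arrays, on the probe set standing for it. That probe set thus stayed near the shared sarcomere median, but other Atp2a2 probe sets did not. The lowest of them stood at -0.39, -0.37 and -0.33 in Dox arrays, against 0.06 and -0.06 in NoDox arrays. The one above NoDox in every Dox array stood at 0.38, 0.98 and 0.44 in Dox arrays, against 0.02 and -0.02 in NoDox arrays. Casq2, at -0.15, 0.10 and 0.12 in Dox arrays against 0.17 and -0.18 in NoDox arrays, overlapped its NoDox values. Tpm3 stood at -0.01, -0.83 and -0.08 in Dox arrays, against -0.06 and 0.05 in NoDox arrays, and was well below the shared median in Dox replicate 2. Myl3 stood at or above that median in the Dox arrays, at 0.02, 0.46 and 0.20, against -0.12 and 0.11 in NoDox arrays. In the order of log2 differences, Tnnt1 and Tnni1, and likewise Casq2 and Atp2a2, differed by less than their standard errors. The genes were selected on these same ratios, so their order is a description and carries no test.

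Each slow gene has a fast-fibre counterpart, and the fast set gives a view of the same filament position in other fibres. None of the 10 counterparts was higher, and 1 was lower, in Dox arrays at an adjusted p under 0.05 in limma, beside 0.522% of all genes lower; at an unadjusted p under 0.05, 0 were higher and 3 lower, beside 6.51% of all genes higher and 9.79% lower at that threshold. That gene was Myh4, the fastest (type IIB) myosin heavy chain, with ratios of 0.171, 0.119 and 0.0822 in Dox arrays, against 1.14 and 0.864 in NoDox arrays. Myh4 fell by 3.06 ± 0.30 on the log2 scale (SE, limma adjusted p = 0.00752), and its other probe set gave -2.26. The heavy chains of slow and of IIB fibres were thus both low in Dox esophagus. The fast partner of Myl2, the light chain Mylpf, had a log2 difference of -0.28 ± 0.15 (limma adjusted p = 0.408). For the partner of Tnnc1, Tnnc2, it was -0.13 ± 0.14 (limma adjusted p = 0.690), and for the fast inhibitory troponin Tnni2 it was 0.41 ± 0.28 (limma adjusted p = 0.518). Troponin C of fast fibres therefore lay near NoDox where that of slow fibres was 7.81-fold lower.

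The other counterparts lay between -0.53 and -0.07. The calsequestrin Casq1 was at -0.53 ± 0.16 (limma adjusted p = 0.186), the Z-disc protein Myoz1 at -0.45 ± 0.19 (limma adjusted p = 0.313), and the SERCA1 pump Atp2a1 at -0.36 ± 0.13 (limma adjusted p = 0.247). Troponin T of fast fibres, Tnnt3, was at -0.24 ± 0.16 (limma adjusted p = 0.497), the tropomyosin Tpm1 at -0.18 ± 0.14 (limma adjusted p = 0.579), and the light chain Myl1 at -0.07 ± 0.14 (limma adjusted p = 0.857). In 9 of the 10 pairs the slow gene had the more negative log2 difference. The slow genes were selected on these same ratios, so nothing is read from that count. The exception was Casq2, which was 0.13 less negative than Casq1. The difference of log2 differences, slow minus fast, was -5.68 for Myl2, -2.84 for Tnnc1, -1.94 for Tnni1, -1.33 for Tnnt1 and -0.98 for Myh7. It was -0.76 for Myoz2, -0.56 for Tpm3, -0.14 for Myl3 and -0.02 for Atp2a2. For Myl3 and Atp2a2 it was smaller in size than the standard error of either gene of the pair. The median was -1.37 for the slow genes and -0.26 for their partners. The probe sets of all 10 fast counterparts were among those with only a lower bound on their signal, and whether brightness near the top of the scanner's range hid part of a difference was not tested.

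**Figure D3:**
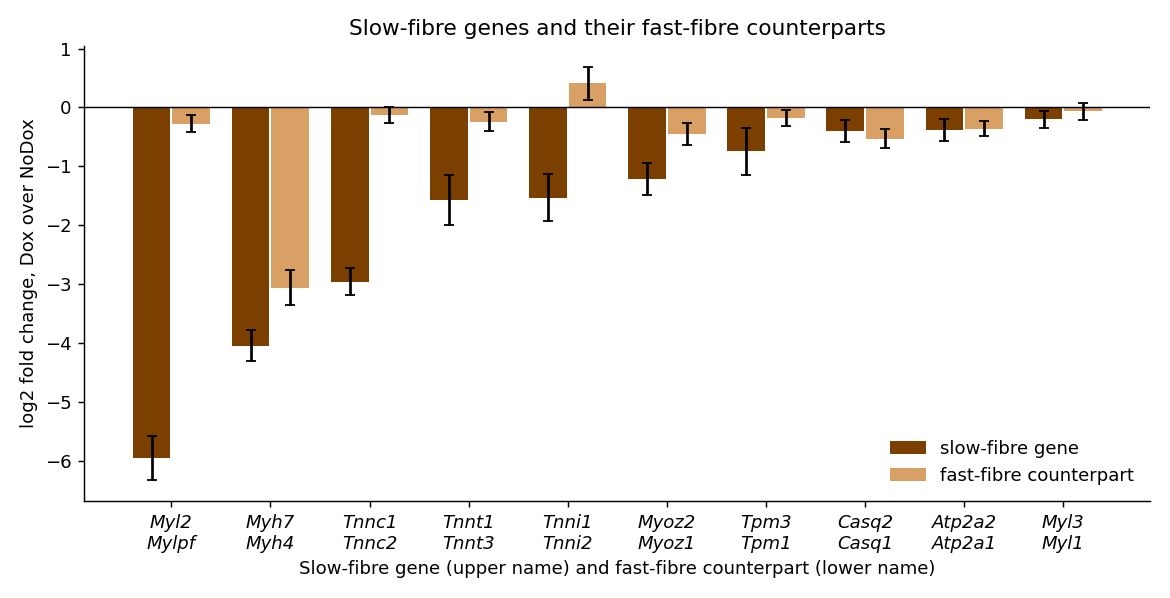
Log2 difference, Dox minus NoDox, of each slow-fibre gene and of its fast-fibre counterpart as bars; error bars are standard errors of the fit (n = 3 Dox and 2 NoDox arrays). The slow gene is the more negative in 9 of 10 pairs, though the slow genes were selected on these ratios. Myh4 is the fast gene that lies far below 0.

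Further fast-fibre genes were read in the same way. The list held 10 genes, among them heavy chains, glycolytic enzymes and a calcium buffer. Of these, 0 were higher and 1 was lower at an adjusted p under 0.05 in limma (0 and 4 at an unadjusted p under 0.05, beside 6.51% and 9.79% of all genes). Their median log2 difference was -0.25. Pvalb, the calcium buffer of the fastest fibres, had ratios of 0.384, 0.307 and 0.353 in Dox arrays, against 1.04 and 0.957 in NoDox arrays, and fell by 1.53 ± 0.14 on the log2 scale (SE, limma adjusted p = 0.00622). Myh2, the heavy chain of oxidative IIA fibres, had ratios of 0.470, 0.0534 and 0.338 in Dox arrays, against 0.996 and 1.004 in NoDox arrays. Its Dox arrays all lay below NoDox but differed widely, and its log2 difference was -2.29 ± 0.84 (SE, limma adjusted p = 0.251). Myh1, the heavy chain of IIX fibres, was at -0.13 ± 0.13 (SE, limma adjusted p = 0.686).

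Of 14 other genes of slow or oxidative fibres, 0 were higher and 1 was lower at an adjusted p under 0.05 in limma (0 and 5 at an unadjusted p under 0.05, beside 6.51% and 9.79% of all genes), with a median log2 difference of -0.35. Fabp3, the fatty acid carrier of heart and oxidative muscle, had ratios of 0.235, 0.272 and 0.195 in Dox arrays, against 1.08 and 0.918 in NoDox arrays. It fell by 2.10 ± 0.18 on the log2 scale (SE, limma adjusted p = 0.0037), but its other probe set gave -0.34. The oxygen store myoglobin, Mb, was at -0.13 ± 0.14 (SE, limma adjusted p = 0.684). The largest upward difference in the list was that of Myl6b, a slow light chain, at 1.61 ± 0.82 (SE, limma adjusted p = 0.389). Its NoDox ratios of 1.69 and 0.307 lay far apart, against 1.41, 3.67 and 2.05 in Dox arrays.

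Of 25 measured regulators of fibre type, none was higher or lower at an adjusted p under 0.05 in limma, and their median was -0.22. The coactivator Ppargc1a, which favours the oxidative slow programme, was at -0.76 ± 0.33 (SE, limma adjusted p = 0.321). Sox6, which represses slow genes in fast fibres, was at -0.45 ± 0.17 (SE, limma adjusted p = 0.266). The nuclear receptor Esrrg had the largest difference, -1.12 ± 0.35 (SE, limma adjusted p = 0.193). Neither the activator nor the repressor passed the test, and 6 of the 25 were lower and 0 higher at an unadjusted p under 0.05 in limma, beside 9.79% and 6.51% of all genes.

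None of the 23 measured shared sarcomere genes passed the test in either direction, although all 23 log2 differences were below 0, with a median of -0.46. Of these, 17 had every Dox array below both NoDox arrays, beside 22.3% of all genes, and 7 were lower and 0 higher at an unadjusted p under 0.05 in limma, beside 9.79% and 6.51% of all genes. The largest was that of Trdn, which ties the calcium store to its release channel, at -0.96 ± 0.43 (SE, limma adjusted p = 0.328). Skeletal actin, Acta1, was at -0.08 ± 0.15 (SE, limma adjusted p = 0.829) and muscle creatine kinase, Ckm, at -0.15 ± 0.14 (SE, limma adjusted p = 0.636).

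**Figure D4:**
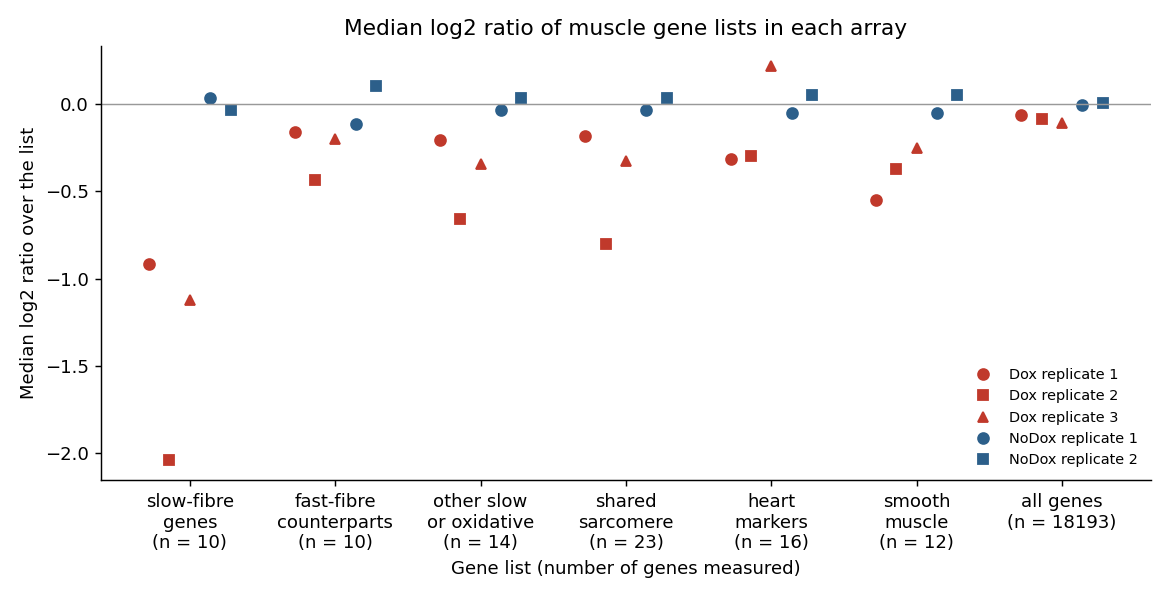
Median log2 ratio to the NoDox mean of 6 muscle and heart gene lists and of all 18193 genes in each Dox and NoDox array; each point is 1 array. The slow-fibre genes have the lowest medians in all 3 Dox arrays, and the shared sarcomere genes are lowest in Dox replicate 2.

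Several slow genes are also heart genes, so heart markers were read beside them. Of 16 measured heart markers, none was higher or lower at an adjusted p under 0.05 in limma; 8 log2 differences were below 0 and 8 above, with a median of -0.06. Their summed signal, with a lower bound for 1 marker, was 15950 to 20523 units in the Dox arrays, against 18784 and 21382 units in the NoDox arrays. Most of that sum came from Actc1, the marker with only a lower bound (6177.0 to 8908.5 units over all arrays), and Myl4 (4304.9 to 6217.9 units). The sum is therefore itself a lower bound. Myl4 is also counted below among genes of developing muscle, so the sum says little about the dimmer markers. Myh6, the main heavy chain of the adult mouse heart, had signals of 282.6, 255.1 and 1208.1 units in Dox arrays, against 268.0 and 257.2 units in NoDox arrays. It was thus at about the same signal in 4 of 5 arrays and higher in Dox replicate 3, at a log2 difference of 0.64 ± 0.69 (SE, limma adjusted p = 0.689). The atrial light chain Myl7 was at -0.94, the cardiac troponin Tnni3 at 0.69, Tnnt2 at -0.14, the cardiac actin Actc1 at -0.40 and the atrial hormone Nppa at 1.11. The largest was the connexin Gja5, at -1.82 ± 0.67 (SE, limma adjusted p = 0.249). It was dim, at 25.0, 23.7 and 30.8 units in Dox arrays, against 100.4 and 74.3 units in NoDox arrays. At an unadjusted p under 0.05 in limma, 1 marker was higher and 3 lower, beside 6.51% and 9.79% of all genes, and no heart marker was listed at 0.

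Markers of other tissues moved with the groups as well. Of 8 lung and airway markers, 4 were higher in Dox arrays and none was lower at an adjusted p under 0.05 in limma, beside 0.841% of all genes higher. Their summed signal, partly lower bounds, was 24965 to 53651 units in Dox arrays, against 8677 and 9729.3 units in NoDox arrays. The surfactant protein Sftpc of alveolar cells rose by 2.18 ± 0.27 on the log2 scale (SE, limma adjusted p = 0.0175). The part of lung RNA in the slow-gene values was not tested. Of 9 measured esophageal epithelial markers, 1 was higher and none lower: Krt6a, a keratin of activated epithelium, rose by 1.80 ± 0.12 (SE, limma adjusted p = 0.00168). The basal keratin Krt5 was at 0.02. No epithelial marker had a signal below 411.3 units in any of the 5 arrays.

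Immature and denervated fibres re-express some genes that adult fibres make little of, and these lists were read for that reason. The lists are not specific to such fibres. Fbxo32, for example, had signals of 7497.7 and 7497.1 units in NoDox arrays, and Myf6 had lower bounds of 8089.6 and 8032.5 units. Of 13 genes of developing or regenerating muscle, none was higher or lower at an adjusted p under 0.05 in limma, with a median of -0.38; at an unadjusted p under 0.05, 0 were higher and 4 lower, beside 6.51% and 9.79% of all genes. The embryonic heavy chain Myh3 was at -1.15 ± 0.42 (SE, limma adjusted p = 0.251), the perinatal Myh8 at -0.21, and the regulator Myog at -0.54. The largest was the fetal receptor subunit Chrng, at -1.18 ± 0.80 (SE, limma adjusted p = 0.514). Of 12 measured genes of denervation and the neuromuscular junction, none passed the test (0 higher and 1 lower at an unadjusted p under 0.05 in limma, beside 6.51% and 9.79% of all genes), the median was -0.30, and the receptor subunit Chrnd was the largest at -1.36 ± 0.72 (SE, limma adjusted p = 0.408).

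By Euclidean distance between log2 ratios over the 5 arrays, the genes nearest to the median profile of the 10 slow genes were Lhb (0.108), Itm2a (0.329), Tceal7 (0.329), C030013G03Rik (0.338) and Rspo2 (0.353). Nearest to Myh7 were Sult1d1 (0.815), Slc22a30 (1.05), BC030500 (1.11), Lep (1.65) and Tnr (1.86). Several of these genes were dim, with a mean log2 signal of 3.23 for Tnr, 4.83 for BC030500, 5.28 for Slc22a30 and 6.08 for Rspo2. Itm2a was bright, at 12.3. The distances to the median profile and to Myh7 are not compared, because the 2 profiles lie at different depths below NoDox. These distances describe 5 arrays. No other gene of the muscle lists was among them.

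With 3 arrays against 2, the smallest two-sided p of an exact permutation test is 0.1, so the calls above rest on limma's pooled spread. They also rest on tying that spread to the signal level: without that step no gene was called lower. Without Dox replicate 2, 239 of 18193 genes (1.31%) were called lower, among them Myoz2 and Tnnt1 besides Myl2, Myh7 and Tnnc1, 5 of the 10 slow genes, from which again nothing is read. Leaving out 1 array left Myh4 and Pvalb called in 3 of 5 cases (highest limma adjusted p = 0.0923 for each), Fabp3 in 4 of 5 (0.0535) and Sftpc in 2 of 5 (0.170).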

How the data were processed

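Esophageal RNA was measured on 5 Affymetrix Mouse Genome 430 2.0 arrays (3 Dox, 2 NoDox). Per the labels' descriptions, the authors made signals with Microarray Suite 5.0 and normalized them in GeneSpring 7.3.1 to the controls. The deposited values are linear ratios: both NoDox ratios summed to 2 (within 0.0001) in 45099 of 45101 probe sets. Each ratio was an array factor (0.8937 to 1) times a signal, taken to be a whole multiple of 0.1 units, over the NoDox mean. Signals found this way (relative tolerance 2e-07) fitted 91.8% of probe sets and 0.5% of 4000 shuffled ones. In a simulation of 5000 probe sets made with that step, 99.9% of those solved were right, up to a common divisor. The simulation took the step as given, so it could not test it. Probe sets of the array that were not fitted got a lower bound.

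Log2 ratios were fitted with limma 3.58.1 in R 4.3.3, with the spread as a trend on the signal level, over 18193 genes (the probe set of highest level, 1 symbol only) and 45037 probe sets, and Benjamini-Hochberg adjustment. A call is an adjusted p under 0.05. No offset or filter was applied. The array has 34945 probe sets with 1 symbol, 932 with several, 9160 with none and 64 controls. Precision is limited by having 5 arrays. The 10 genes and all lists were chosen with earlier results of these data known. Named are the 10 genes, their counterparts and, of other lists, the genes called (at most 3 in a direction), the largest difference and set defining genes. The 18 alternatives cover scaling, offsets, probe set choice, variance model and leaving out arrays; 1 of them, recovered signals without array factors, was added after seeing the data.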

Additional observations from a re-analysis of the deposited data

How the results depend on the processing

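Over 18 alternatives the log2 differences of Myl2, Myh7 and Tnnc1, selected on these same ratios, ranged from -6.52 to -5.39, -4.36 to -3.73 and -3.15 to -2.81, as a description. No trend, or a trend on the mean ratio, called 0 lower of the slow genes, the counterparts, the other fast genes and the other slow genes; 2439 and 2387 genes, and 4514 and 4136 probe sets, then had an unadjusted p under 0.05 in limma, beside 2967 and 5980 as reported. Tpm3 ranged from -1.01 to 0.03 and Atp2a2 from -0.49 to 0.22, the upper value on the probe set of highest mean ratio, which also called 0 other slow genes and moved the median of all genes by 0.15; omitting array factors moved it by 0.11. Genes higher (153 as reported) numbered 4 without a trend, 0 with the mean-ratio trend, 232 with robust eBayes, 260 with array weights, and 46 to 216 leaving out 1 array. Genes lower (95) numbered 63 centred, 50 quantile-normalized, 0, 0, 177 robust, 227 weighted, and 6 to 239 leaving out 1 array; centring gave 180 higher, quantiles 192. Without array factors, 220 genes were higher and 66 lower. Probe sets higher (173) numbered 6, 0 and 284 weighted, and 53 to 211 leaving out 1 array; probe sets lower (92) numbered 48 quantile-normalized, 139 without the dimmest probe sets, 0, 0, 186 robust, 228 weighted, 59 without array factors, and 7 to 219 leaving out 1 array. Leaving out 1 array gave 3 to 5 slow genes lower (5 without Dox replicate 2, where 1.31% of all genes were), 0 to 1 counterparts, 0 to 2 other fast and 0 to 1 other slow genes. The arrays share only the numbers 1 and 2, which the labels do not say pair samples; with the replicate block 122 genes were higher and 55 lower. Reversed log2 differences were Tnnc2 0.000731 (quantile) and -0.275 to 0.0156 leaving out 1 array; Tnni2 -0.19 (mean of probe sets) and -0.0908 to 0.92; Myl1 0.0174 (centred), 0.0708 (quantile), 0.0452 (no array factors) and -0.22 to 0.0918; Acta1 0.00245, 0.0542 and 0.0302 in those settings and -0.25 to 0.0938 leaving out 1 array. On the probe set of highest mean ratio, Esrrg was 0.39, Chrng 0.81, Uty 0.53 and Tnnt2 0.38. Uty was 0.024 on the mean of probe sets. Myh6 was -0.0905 with the block. Leaving out 1 array gave -0.0905 to 1.06 for Myh6, -0.42 to 0.0852 for Tnnt2 and -1.32 to 3.55 for Nppa. The causes were not tested.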

Other observations

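Of 12 smooth muscle genes, none was higher or lower at an adjusted p under 0.05 in limma, and the median log2 difference was -0.32; at an unadjusted p under 0.05, 0 were higher and 4 lower, beside 6.51% and 9.79% of all genes. The calponin Cnn1, a marker of contractile smooth muscle, had the largest difference, at -0.79 (limma adjusted p = 0.111). Of 7 measured nerve and Schwann cell genes, none passed the test in limma (0 at an unadjusted p under 0.05), the median was 0.20, and the neuronal RNA-binding protein Elavl4 was the largest at 1.05. Of 6 measured adipocyte genes, 1 was lower and none higher. That was Lep, the fat-cell hormone leptin, with ratios of 0.0546, 0.0339 and 0.156 in Dox arrays, against 1.13 and 0.867 in NoDox arrays; it fell by 3.91 ± 0.58 on the log2 scale (SE, limma adjusted p = 0.0323). Leaving out 1 array kept that call in 2 of 5 cases. Of 4 measured sex-linked genes none passed the test in limma (0 at an unadjusted p under 0.05), the median was -0.23, and the largest was Uty at -0.41.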
